A study of Mus musculus with 6 samples.

Results

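The sirtuin family, Sirt1 to Sirt7, was examined in total retinal RNA of 15-day-old mice. Its members were the probe sets of an Affymetrix Mouse Gene ST array whose only gene symbol was one of the 7 sirtuins. There were 7 such probe sets, 1 for each gene, among the 22180 genes of 23521 probe sets with exactly 1 symbol, of 41345 probe sets in all. A further probe set lists Sirt6 together with 4 predicted genes and was not used as a measure of Sirt6. Retinas came from Sirt6 knock-out (KO) and Sirt6 wild-type (WT) mice, all of strain 129SvJ and untreated, with 3 samples of each genotype on 1 array each. The study describes the SIRT6-KO mouse as one that looks normal at birth and then develops a severe loss of blood glucose. The sources do not say whether a sample held 1 animal or a pool, so the p-values measure the spread between these samples, which may be technical.

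Sirtuins are enzymes that remove acetyl and other acyl groups from lysines and consume NAD+ in doing so, which ties their activity to the metabolic state of the cell. SIRT1, SIRT6 and SIRT7 are mostly nuclear and act on histones and transcription factors, SIRT2 is mostly cytoplasmic and acts on tubulin among others, and SIRT3, SIRT4 and SIRT5 lie in mitochondria. SIRT6 deacetylates histone H3 at promoters and holds back genes of glycolysis, and the retina depends heavily on glucose.

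The genotypes are set side by side as log2 of the RMA intensity, a normalized brightness in which 1 unit is a doubling. The median log2 intensity of the arrays lay between 6.94 and 7.09. Replicates numbered 2 stood apart, with an interquartile range of 2.60 in KO and 2.48 in WT retinas against 2.85 to 3.07 on the other arrays. Photoreceptor, bipolar cell, ganglion cell and Mueller glia markers lay above the median of every array for 7 of 7, 4 of 4, 4 of 4 and 3 of 3 measured genes, those of amacrine and horizontal cells for 4 of 5 and those of pigment epithelium for 3 of 5. Markers of lens, which a dissection can carry along, summed to linear intensities between 9318 and 20933 in KO and between 11588 and 37737 in WT retinas. In whole tissue, fewer cells of a type and less RNA per cell cannot be told apart.

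Sirt6, the disrupted gene, fell in KO retinas and was the only sirtuin to pass the test. Its log2 intensity was 6.47, 7.15 and 6.83 in KO replicates 1 to 3, against 9.34, 9.14 and 9.32 in WT replicates 1 to 3. Every KO sample lay more than 1 unit below every WT sample, so that no sample went against its label. Means were 6.82 ± 0.34 in KO and 9.26 ± 0.11 in WT retinas (SD, n = 3 each). Sirt6 thus changed by -2.45 on the log2 scale, with a standard error of 0.20 and a 95% confidence interval from -2.91 to -1.98 (adjusted p = 0.032 from limma). The KO level was 0.184 times the WT level, with an interval from 0.133 to 0.253. Of the 7 sirtuins 1 passed at an adjusted p under 0.05, where 0.00425% of all probe sets tested did, which is Sirt6 alone. In this fit Sirt6 ranked 1 of the 23521 probe sets by p and 1 by the size of its fold change. With the replicate number as a block, 1700101O22Rik had a smaller unadjusted p (5.5e-07 against 7.1e-07 for Sirt6, both from limma).

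The Sirt6 signal in KO retinas was low but not at the bottom of the arrays. It stood between the 40.6 and 51.8 percentile of all probe sets on the KO arrays, against the 84.1 to 85.8 percentile on the WT arrays. Where its probes lie relative to the deleted sequence is not given in the sources used here. The mean of the other 6 sirtuins served as a yardstick within each array. Sirt6 minus this mean was -2.53, -1.53 and -2.11 log2 units in KO replicates 1 to 3, against 0.31, 0.51 and 0.30 in WT replicates 1 to 3. The narrowest distance in KO was thus that of replicate 2, one of the arrays that stood apart. With both replicates numbered 2 left out, a setting added after the data were seen, Sirt6 had a log2 fold change of -2.67 (adjusted p = 0.136 from limma). The call also ended without KO replicate 1 (adjusted p = 0.140 from limma), KO replicate 3 (0.651), WT replicate 1 (0.233), WT replicate 2 (0.052) or WT replicate 3 (0.158).

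**Figure D1:**
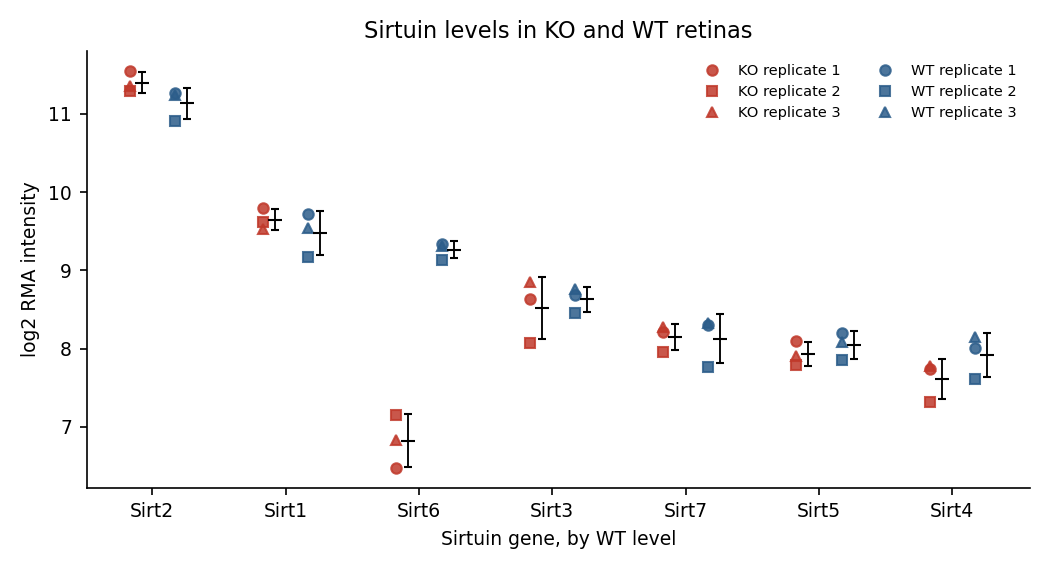
The log2 RMA intensity of each sirtuin (vertical axis) in the 3 KO and 3 WT retinas, with genes in the order of their WT mean (horizontal axis). Symbols are samples and bars are the mean with its SD; Sirt6 lies between 6.47 and 7.15 in KO against 9.14 to 9.34 in WT, while the genotypes lie close together for the other genes.

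The sequence just before the start of Sirt6 is shown because Sirt6 is the disrupted gene, and those of 4 other members for comparison. Sirt6 and Sirt3 have 2 RefSeq starts each, and the one further upstream is printed. The window of the other start, not printed, holds a GC box and no NRF1 or ETS match in both genes. The sequences are read 5′ to 3′ toward the gene's first base, from RefSeq on GRCm38.p6, with capitals at matches to any of 6 promoter motifs. Sirt6 lies on chr10:81627567-81627816 (minus strand), Sirt7 on chr11:120625015-120625114 (minus strand), Sirt3 on chr7:140882310-140882409 (minus strand), Sirt1 on chr10:63339036-63339135 (minus strand) and Sirt2 on chr7:28766652-28766751 (plus strand).
Sirt6: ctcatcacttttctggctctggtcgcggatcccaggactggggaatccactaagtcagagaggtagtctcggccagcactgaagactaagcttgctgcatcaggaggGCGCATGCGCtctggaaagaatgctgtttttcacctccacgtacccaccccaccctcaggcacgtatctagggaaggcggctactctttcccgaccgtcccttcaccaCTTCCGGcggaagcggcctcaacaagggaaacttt
Sirt7: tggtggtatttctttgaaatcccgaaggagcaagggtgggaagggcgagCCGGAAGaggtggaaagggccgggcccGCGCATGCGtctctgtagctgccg
Sirt3: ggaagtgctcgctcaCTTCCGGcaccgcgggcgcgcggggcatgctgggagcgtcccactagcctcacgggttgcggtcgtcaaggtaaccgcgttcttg
Sirt1: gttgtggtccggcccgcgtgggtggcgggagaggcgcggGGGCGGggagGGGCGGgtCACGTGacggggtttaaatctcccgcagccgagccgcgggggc
Sirt2: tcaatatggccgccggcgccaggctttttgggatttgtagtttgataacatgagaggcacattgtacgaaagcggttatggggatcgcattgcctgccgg

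The motifs were searched on both strands, from 250 bases before to 50 after each RefSeq start. They were the GC box GGGCGG, the ETS motif CCGGAAG, the NRF1 motif GCGCATGCG, the E-box CACGTG, the CCAAT box CCAAT and the TATA motif TATAAA. All 7 sirtuins had a window, and Sirt3 and Sirt6 had 2. Sirt6 and Sirt7 were the 2 members with an NRF1 match, which 1.75% of all 32851 windows held. Sirt1, whose enzyme is nuclear too, had none, and in Sirt6 the match lay in 1 of its 2 windows. In Sirt6 the match reads the same on both strands and covers GCGCATGCGC. These 2 genes and Sirt3 held an ETS match (8.86% of all windows). Sirt1 alone held the E-box (7.15%), and 6 members held a GC box (35.7%), Sirt4 being without one. A CCAAT box was found in Sirt2, Sirt3 and Sirt5 (37.4% of all windows), and the TATA motif in 0 members (13.6%). Windows of the family held 15 to 47 CpG pairs, against a median of 7 over all windows. The shares are of single windows, while a member counted with a match in any of its windows. They were not taken over windows of like CpG content, so they cannot show how rare a match is among such windows. A match describes letters in the sequence and shows no binding.

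The other 6 sirtuins were compared to ask whether any of them differed where Sirt6 was disrupted, and 0 passed at an adjusted p under 0.05 (adjusted p = 0.9999 each from limma). At an unadjusted p under 0.05 it was 0 of 6 as well, where 1.86% of all probe sets passed. With the replicate number as a block it was 1 of 6, Sirt4, where 7.31% of all probe sets passed. Across 16 alternatives, the block among them, Sirt4 had such a p in 4, Sirt2 in 1, and Sirt1, Sirt3, Sirt5 and Sirt7 in 0. Their log2 fold changes ran from -0.31 to 0.26 with a median of -0.04, against a median of -0.01 over all probe sets. A total of 3 had a higher and 3 a lower mean in KO, where 51.8% of all probe sets had a lower one. Without the block, the lowest bound of their 95% confidence intervals was -0.79 and the highest 0.66.

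Of the 6 sirtuins other than Sirt6, Sirt2, the tubulin deacetylase that is abundant in myelinating glia, was the one whose genotypes did not overlap. Its log2 intensity was 11.55, 11.30 and 11.35 in KO replicates 1 to 3, against 11.26, 10.91 and 11.24 in WT replicates 1 to 3. All 3 KO samples lay above all 3 WT samples, with KO replicate 2 close to WT replicate 1, and 1.98% of all probe sets had this order. KO exceeded WT by 0.26 on the log2 scale (standard error 0.17, 95% confidence interval -0.14 to 0.66), or 1.2 times in linear terms. By a two-sided exact permutation test p was 0.10, which is the smallest that 3 samples against 3 allow. The myelin markers Mbp, Mog and Mobp had higher means in KO too. Their summed linear intensity was 550, 674 and 835 in KO replicates 1 to 3, against 459, 449 and 484 in WT replicates 1 to 3. Of these 3 markers, 1 lay above the median of every array, and Mobp, a structural myelin protein, stood 0.77 log2 units higher in KO (standard error 0.21). The order of the samples differed, since Sirt2 was highest in KO replicate 1 and the myelin sum in KO replicate 3, and the part of myelin in the Sirt2 values was not tested.

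Sirt1, a deacetylase of p53 and FOXO factors, had 9.79, 9.62 and 9.53 in KO replicates 1 to 3, against 9.72, 9.17 and 9.55 in WT replicates 1 to 3 on the log2 scale. The groups overlapped, and WT replicate 2 was the one low sample. Its log2 fold change was 0.17 (standard error 0.19, 95% confidence interval -0.27 to 0.61), and it turned to -0.072 with array weights. Sirt7, which acts on ribosomal DNA in the nucleolus, had 8.21, 7.95 and 8.28 in KO replicates 1 to 3, against 8.30, 7.76 and 8.32 in WT replicates 1 to 3. In both genotypes replicate 2 was lowest, and the genotype means lay within 0.02 (standard error 0.20, 95% confidence interval -0.45 to 0.49). The sign of that difference turned in 5 of 16 alternatives.

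The mitochondrial members had lower means in KO retinas, each by less than its interval. Sirt4, which restrains glutamate dehydrogenase, had 7.74, 7.32 and 7.77 in KO replicates 1 to 3, against 8.0, 7.60 and 8.15 in WT replicates 1 to 3 on the log2 scale. The KO sample was lower in all 3 pairs of the same number, by 0.26 to 0.38, although the groups overlapped through WT replicate 2. Its log2 fold change was -0.31 (standard error 0.21, 95% confidence interval -0.79 to 0.17), with p = 0.30 in the two-sided exact permutation test. With the replicate number as a block the standard error was 0.13 (unadjusted p = 0.041, adjusted p = 0.676, both from limma). Sirt5, which removes succinyl and malonyl groups, had 8.09, 7.79 and 7.90 in KO replicates 1 to 3, against 8.19, 7.85 and 8.09 in WT replicates 1 to 3. It too was lower in KO in 3 of 3 pairs, at -0.11 on the log2 scale (standard error 0.17, 95% confidence interval -0.51 to 0.28). Sirt3, the main mitochondrial deacetylase, had 8.64, 8.08 and 8.85 in KO replicates 1 to 3, against 8.68, 8.45 and 8.76 in WT replicates 1 to 3. KO replicate 2 was the lowest sample. On the log2 scale the genotypes differed by -0.11 (standard error 0.22, 95% confidence interval -0.62 to 0.40), and by 0.11 without KO replicate 2.

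**Figure D2:**
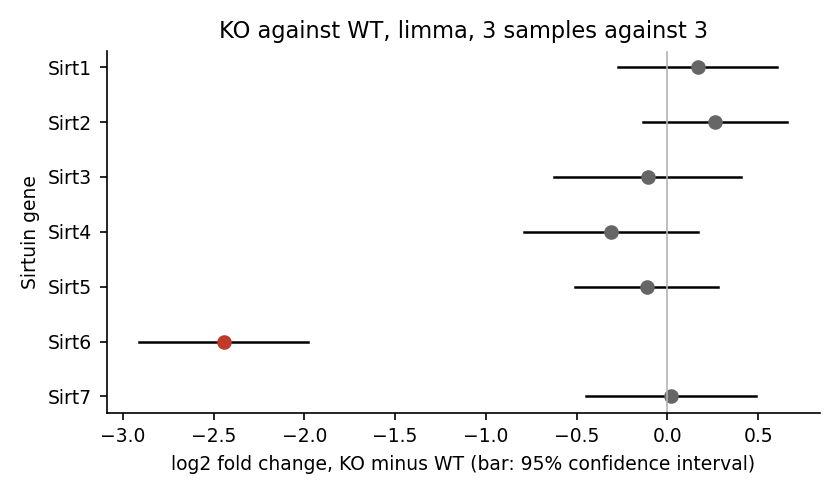
The log2 fold change of each sirtuin, KO minus WT (horizontal axis), for the 7 genes (vertical axis), with points at the estimate and bars over the 95% confidence interval from limma. The interval of Sirt6 runs from -2.91 to -1.98, and the intervals of the other 6 genes all include 0.

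In order of WT level, Sirt2 was followed by Sirt1, Sirt6, Sirt3, Sirt7, Sirt5 and Sirt4. Signal depends on a probe set's probes as well as on its transcript, so this is an order of array signal and not of transcript number. Mean log2 intensity in WT retinas was 11.14 ± 0.20 for Sirt2, 9.48 ± 0.28 for Sirt1, 9.26 ± 0.11 for Sirt6 and 8.63 ± 0.16 for Sirt3 (SD, n = 3 each). Sirt7 averaged 8.13 ± 0.32, Sirt5 8.04 ± 0.18 and Sirt4 7.92 ± 0.28 in the same WT samples (SD, n = 3 each). The step of 1.66 from Sirt2 to Sirt1 was the widest, and the 3 WT values of Sirt2 lay between the 97.2 and 97.6 percentile of all probe sets. Sirt1 and Sirt6 overlapped, with a step of 0.22, although Sirt1 was the higher of the pair in 3 of 3 WT samples. Sirt6 lay above Sirt3 and Sirt3 above Sirt7 without overlap, by 0.63 and 0.50. The 3 lowest members did not separate, since Sirt7 led Sirt5 and Sirt5 led Sirt4 in 2 of 3 WT samples each, with steps of 0.08 and 0.12. The family spanned 3.22 log2 units, a 9.30-fold range of signal.

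The same order held in KO retinas except for Sirt6, which took place 7 in each of the 3 KO samples and place 3 in each of the 3 WT samples. In KO the mean of Sirt4 stood 0.79 above that of Sirt6, and the nearest step, in KO replicate 2, was 0.17. The other neighbours kept their places, with Sirt2 1.75 above Sirt1 and Sirt1 1.13 above Sirt3 in KO.

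Within each genotype, most sirtuins had their lowest value in replicate 2. How many of all probe sets did so was not counted, so this is not shown to be a trait of the family. Outside it, Herc4 beside Sirt1 was also lowest in replicate 2 of both genotypes (9.52 in KO, 9.53 in WT). Ctnna3, also near Sirt1, was highest there (6.36 in KO, 6.40 in WT). WT replicate 2 held the lowest WT value of all 7 sirtuins, and KO replicate 2 the lowest KO value of 5. The exceptions in KO replicate 2 were Sirt1, which was lowest in KO replicate 3, and Sirt6, which was highest in KO replicate 2. The mean log2 intensity of the 6 sirtuins other than Sirt6 was 9.0, 8.68 and 8.95 in KO replicates 1 to 3, against 9.03, 8.62 and 9.02 in WT replicates 1 to 3. The dip of replicate 2 in both genotypes was thus several times wider than the distance between genotypes at replicates 1 and 3. These are the arrays with the narrower interquartile range, and the part of that range in the dip was not tested.

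**Figure D3:**
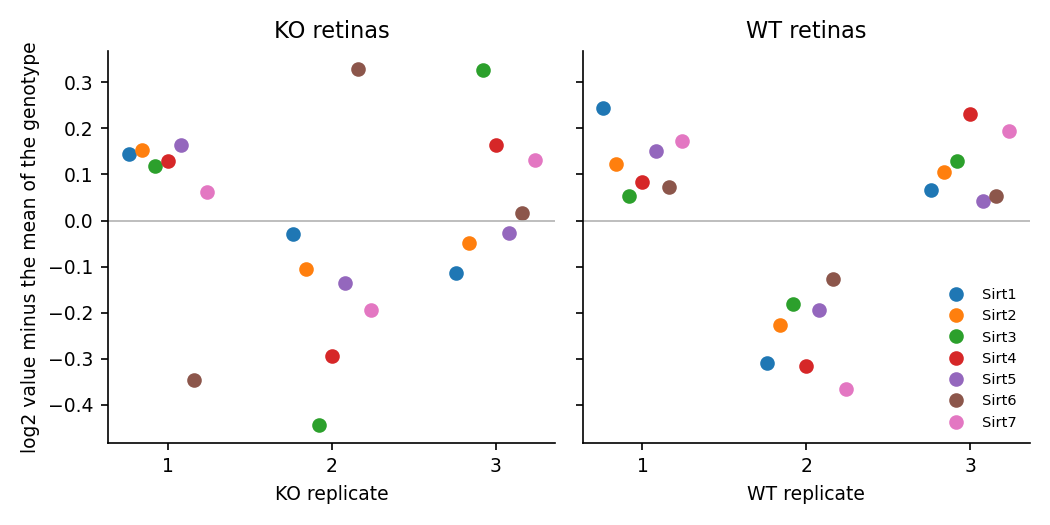
Each sirtuin's log2 value minus the mean of its genotype (vertical axis) in KO and WT replicates 1 to 3 (horizontal axes), 1 point a gene. All 7 points of WT replicate 2 lie below 0, and in KO replicate 2 Sirt6 is the 1 gene above 0.

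Profiles over the 6 samples were compared after each gene's log2 values had been scaled to run from 0 to 1, by Euclidean distance. Within the family, Sirt1 and Sirt2 were most alike (0.39), followed by the mitochondrial Sirt4 and Sirt5 (0.53) and Sirt3 and Sirt4 (0.54), and Sirt2 and Sirt6 were least alike (1.66). Over all 23521 probe sets, the 3 nearest to Sirt6 were Car11, a carbonic anhydrase-related protein (0.20), Taf1c, a factor of RNA polymerase I (0.20), and Dnah9, an axonemal dynein (0.23). Scaling hides the size of a change. Log2 fold changes were -0.40 for Car11 (standard error 0.15), -0.16 for Taf1c (standard error 0.15) and -0.60 for Dnah9 (standard error 0.16), against -2.45 for Sirt6. Nearest to Sirt4 were Slc17a6, a vesicular glutamate transporter (0.05), the fibroblast growth factor homologue Fgf12 (0.05) and Srl (0.08). Those nearest to Sirt2 were Btg2 (0.09), the clock repressor Cry1 (0.12) and the co-chaperone Dnaja4 (0.13), and those nearest to Sirt1 the acetyltransferase Kat5 (0.13), the TATA-binding protein Tbp (0.13) and Rcor3 (0.14). Sirt3 had Cryz, Tmem9b and Gpn1 nearest (0.07 to 0.09), Sirt5 had Stard4, Tlcd5 and Twnk (0.07 to 0.09), and Sirt7 had Tbcc, Tmem67 and Zfp119a (0.08 to 0.09). With 6 samples, all of them shared, such distances are a description only, and the nearest genes to Sirt6 lay further off than those to any other member.

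The genes next to each sirtuin on its chromosome were measured because Sirt6 is a disrupted locus. All 4 genes beside Sirt6 on chromosome 10 had lower means in KO retinas, with log2 fold changes from -0.42 to -0.35, while Sirt6 itself had -2.45. Of all probe sets tested, 51.8% had a lower mean in KO. BC025920, a transcribed pseudogene, had a log2 intensity of 8.57, 8.26 and 8.51 in KO replicates 1 to 3, against 9.01, 8.64 and 8.96 in WT replicates 1 to 3. All 3 KO values lay below all 3 WT values, a pattern that 3.67% of all probe sets showed in this direction, and its log2 fold change was -0.42 (standard error 0.18). A second probe set of BC025920 gave -0.45 (standard error 0.19). Tle6, a member of the Groucho family of co-repressors, had 7.18, 6.92 and 6.83 in KO replicates 1 to 3, against 7.40, 7.20 and 7.58 in WT replicates 1 to 3, again without overlap (log2 fold change -0.41, standard error 0.18).

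On the other side of Sirt6, Ankrd24, an ankyrin repeat gene read in the opposite direction, had 8.45, 8.74 and 8.16 in KO replicates 1 to 3, against 8.77, 9.09 and 8.69 in WT replicates 1 to 3. Its groups overlapped slightly, and its log2 fold change was -0.40 (standard error 0.20). The gene model Gm10778 differed by -0.35 (standard error 0.21), also with overlapping groups. Over these 4 genes, the KO sample was lower in 12 of 12 pairs of the same number. These are 4 genes read on the same 3 pairs of arrays, so the 12 are not independent. How many of all probe sets were lower in all 3 pairs was not counted. BC025920 and Tle6 had an unadjusted p under 0.05 in limma, a call that 0.961% of all probe sets got in the lower direction. With the replicate number as a block all 4 genes got it (unadjusted p between 0.010 and 0.038), and the share of all probe sets rose to 3.54%. Across 16 alternatives, the block among them, BC025920 and Tle6 had such a p in 8 each, Ankrd24 in 5 and Gm10778 in 1. None passed after adjustment over all probe sets (adjusted p = 0.9999 each from limma, 0.570 to 0.675 with the block).

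Around the other 6 sirtuins, 13 of 24 neighbours had a lower mean in KO, where 51.8% of all probe sets did. Their median log2 fold change was -0.02, against -0.41 for the 4 genes beside Sirt6, and this difference was not tested. Of all 28 neighbours, 3 were lower at an unadjusted p under 0.05, where 0.961% of all probe sets were, and 0 were higher, where 0.897% were. With the block, 5 were lower, where 3.54% of all probe sets were. The one outside the Sirt6 locus was Cox8b, a cytochrome c oxidase subunit near Sirt3, at -0.91 (standard error 0.34). A pair of sirtuins shares its start region with a gene read the other way. The starts of Sirt3 and the proteasome subunit Psmd13 lie 85 bases apart and those of Sirt2 and the NF-kB inhibitor Nfkbib 108 bases, in RefSeq on GRCm38.p6. In log2 fold change, Psmd13 had 0.22 (standard error 0.21) beside -0.11 for Sirt3, and Nfkbib 0.11 (standard error 0.18) beside 0.26 for Sirt2.

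**Figure D4:**
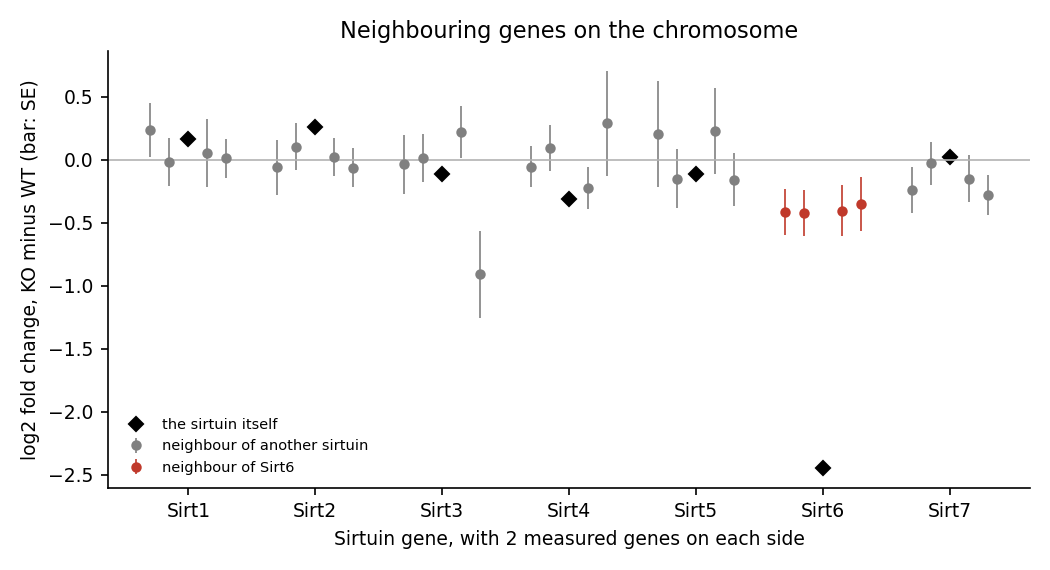
The log2 fold change, KO minus WT (vertical axis), of each sirtuin (diamonds) and of the 2 nearest measured genes on each side of it (points with SE bars), by sirtuin (horizontal axis). The 4 genes beside Sirt6 lie between -0.42 and -0.35, and those beside the other sirtuins between -0.91 and 0.29.

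Genes that feed, compete with or serve the sirtuins were described in 6 lists with 70 of 76 genes measured, and few of them differed. By unadjusted p under 0.05 in limma 1 was higher and 1 lower, 2.86% of the measured genes, where 1.86% of all probe sets passed. With the replicate number as a block it was 7 of 70 genes, where 7.31% of all probe sets passed. None passed after adjustment (adjusted p = 0.9999 each from limma), where the block raised the count over all probe sets to 3, or 0.0128%. Both genes of the first count belong to the 11 measured glycolytic genes that SIRT6 is known to repress (median log2 fold change -0.09). Pdk4, the kinase that shuts off pyruvate dehydrogenase, had 6.37, 6.80 and 6.50 in KO replicates 1 to 3, against 6.15, 6.15 and 5.98 in WT replicates 1 to 3. The KO values all lay above the WT values, as in 1.98% of all probe sets, and the means differed by 0.46 on the log2 scale (standard error 0.18). Pfkl, a phosphofructokinase subunit, had 10.82, 10.58 and 10.40 in KO replicates 1 to 3, against 11.13, 10.92 and 11.03 in WT replicates 1 to 3, and differed by -0.42 (standard error 0.17). Slc2a1, the glucose transporter GLUT1, outside the naming rule and chosen after its values were seen, had 0.05 (standard error 0.17).

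Over all probe sets tested, 51.8% had a lower mean in KO, and the counts by direction below stand beside that share. They were not tested. Genes listed under NAD synthesis had lower means in 14 of 19, with a median log2 fold change of -0.06. Several of the list, lower and higher ones alike, lay below the median of every array. Examples are Nnmt (mean log2 intensity 4.89 in KO, 4.96 in WT) and Tdo2 (4.49 in KO, 4.44 in WT), so the count is not one of clearly expressed genes. The nicotinamide riboside kinase Nmrk1 (-0.53, standard error 0.28) and the adenylyl transferases Nmnat2 (-0.34, standard error 0.22) and Nmnat1 (-0.35, standard error 0.25) did not pass, and these 3 of 19 were lower at an unadjusted p under 0.05 with the block, where 3.54% of all probe sets were. The mitochondrial NAD kinase Nadk2 had 0.29 (standard error 0.19). Of the 9 other NAD users measured, 5 had lower means (median -0.03). The mean of Parp4, a poly(ADP-ribose) polymerase family member, differed by -0.37 (standard error 0.23) and did not pass with or without the block. Sarm1, the axonal NAD hydrolase (-0.37, standard error 0.20), and the cyclase Bst1 (-0.47, standard error 0.33) were lower with the block, as 2 of 9 against the same 3.54%, and did not pass without it. Zinc-dependent deacetylases had lower means in 8 of 11 (median -0.07), and Hdac10, a polyamine deacetylase, had -0.25 (standard error 0.16). It was the 1 of these 11 that was lower without overlap between genotypes, where 3.67% of all probe sets were. Regulators and partners of SIRT1 had lower means in 7 of 9 (median -0.12, Foxo3 -0.19, standard error 0.18). Substrates of the mitochondrial sirtuins had higher means in 9 of 11, with a median of 0.09 and values from -0.18 for the malonyl-CoA decarboxylase Mlycd to 0.21 for the isocitrate dehydrogenase Idh2. In these last 3 lists limma gave 0 genes an unadjusted p under 0.05, with or without the block.

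**Figure D5:**
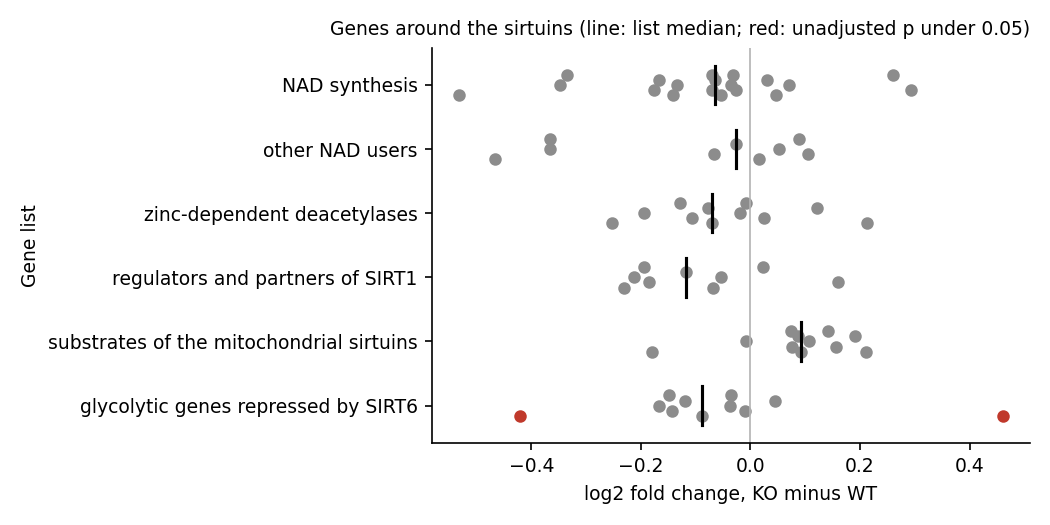
The log2 fold change, KO minus WT (horizontal axis), of each measured gene in the 6 lists around the sirtuins (vertical axis), with a line at each list's median. Points in red, Pdk4 at 0.46 and Pfkl at -0.42, had an unadjusted p under 0.05 in limma.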

How the data were processed

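Total retinal RNA of 3 KO and 3 WT samples was hybridized to Affymetrix Mouse Gene ST arrays. Intensities were deposited after the authors had run RMA (background correction, quantile normalization and summary by probe set). Values lie on a linear scale, so log2 was taken. The package version, annotation and genome build are not given in the sources used here. The number of arrays limits the precision.

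Symbols came from the platform annotation. The 23521 probe sets with exactly 1 symbol were tested with lmFit and eBayes of limma 3.58.1 (R 4.3.3), two-sided, without a covariate, with Benjamini-Hochberg adjustment over all of them at 0.05. Exact permutation tests used all divisions into 3 and 3. Where a gene of a list or a neighbour had more than 1 probe set, that of largest linear variance stood for it. The fit was tested on simulated data. Deviations from the genotype mean correlated at 0.63, 0.74 and 0.19 between KO and WT samples of the same number, and at -0.66 to 0.51 between different numbers, so that pair 3 is the weakest. The labels also give same-numbered samples a shared tag whose meaning is not stated. As each pair lay over 0.1, the numbers were taken to pair the samples, and the replicate block was fitted as an alternative. That bound cannot tell true pairs from others, since samples of different numbers reached 0.51 and pair 3 had 0.19. All results with the block rest on this pairing. Other alternatives were the methods' t-test, a second quantile normalization, centring on the median, a filter on dim probe sets, no filter on symbols, a robust prior with an intensity trend, weights for arrays and omission of each sample.

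The members and lists were chosen with earlier results of these data known. Genes named are the sirtuins, up to 4 genes a list in order of smallest p, the 2 nearest measured genes on each side and the 3 nearest profiles. Genes of the lists without a probe set of 1 symbol were not analysed here. Group means are followed by the SD.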

Additional observations from a re-analysis of the deposited data

How the results depend on the processing

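Across 16 alternatives the log2 fold change of Sirt6 lay between -2.67 and -2.27, its unadjusted p from limma or the methods' t-test stayed at or below 2.8e-04, and its adjusted p lay between 1.7e-04 and 0.9999. The call ended with the methods' t-test (-2.45), median centring (-2.44), all probe sets (-2.45) and without both replicates numbered 2 (-2.67), and leaving out 1 sample gave -2.61 to -2.27. It held with the replicate block, which left the fold change at -2.45 (adjusted p = 0.0083 from limma). The count of probe sets called at an adjusted p under 0.05, 1 as fitted, was 3 with the replicate block, 0 with the methods' t-test, median centring, all probe sets and without both replicates numbered 2, 5 with array weights and 2 with the interquartile range of each array as a covariate, and 0 to 1 when 1 sample was left out. At an unadjusted p under 0.05 the count of 437 became 1720 with the replicate block, 919 with quantile normalization again, 675 over all probe sets, 4536 with array weights, 1480 without both replicates numbered 2, 2195 with the covariate, and 201 to 2027 when 1 sample was left out. The 2 list genes became 7 with the replicate block, 16 with array weights, 4 without both replicates numbered 2, 8 with the covariate, and 0 to 8 when 1 sample was left out. The array weights stopped before they had converged, and results with them rest on that fit. The covariate and leaving out both replicates numbered 2 were chosen after seeing the data. Sirt1 turned to -0.072 with array weights. Sirt3 turned to 0.11 without KO replicate 2 and 0.022 without both replicates numbered 2, and lay between -0.27 and 0.11 when 1 sample was left out. Sirt7 turned to -0.11 with array weights, -0.066 without both replicates numbered 2, and lay between -0.16 and 0.12 when 1 sample was left out. Sirt2, Sirt4, Sirt5 and the 4 genes beside Sirt6 kept their direction in all 16, and 0 of the 6 other sirtuins passed after adjustment in any. The replicate block also brought Sirt4, Ankrd24 and Gm10778 to an unadjusted p under 0.05 and changed no call of the other sirtuins, Tle6 or BC025920. The order by WT level was the same in 5 of 5 alternatives. The cause of these changes was not tested.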
